A study of Mus musculus with 17 samples.

Results

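Sialic acids are the negatively charged sugars that end many glycans of the cell surface, and 10 genes that make and attach them were followed in a mouse podocyte line. The members were given by gene symbol and matched to the Ensembl identifiers of the count table, so that all 10 were found among its 56748 genes. They are Gne, Cmas and Slc35a1, which supply the activated sugar, and the sialyltransferases St3gal1, St3gal2, St3gal3, St3gal4, St3gal5, St3gal6 and St6gal1. RNA was sequenced from E11 cells on silicone (PDMS) substrates with 3 surfaces. HF is a highly fractal relief drawn from tracings of healthy glomeruli (6 libraries), RT is a round relief without fractal form (6 libraries), and NT has no relief (5 libraries). The labels name no added agent and no genetic change, and the groups share the cell line and the material. What separates one library of a group from the next is not stated, and a p-value here refers to the scatter among libraries, which could be purely technical. E11 is a cultured line, and no culture time, passage or number of clones is given in the labels.

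In mammalian cells, sialic acid is made in the cytosol from UDP-N-acetylglucosamine, activated with CMP, carried into the Golgi and there added to glycoproteins and glycolipids. On podocytes, the epithelial cells that wrap glomerular capillaries, much of this charge sits on podocalyxin, and it is known to keep neighbouring foot processes apart. Sialyltransferases differ in the sugar chain that they cap. ST3GAL1 and ST3GAL2 cap the galactose of the core O-glycan, ST3GAL3, ST3GAL4 and ST3GAL6 mainly cap lactosamine chains, ST3GAL5 makes the ganglioside from which most others derive, and ST6GAL1 caps N-glycans in a different linkage.

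Libraries held 16.2 to 17.8 M counts on HF, 15.7 to 24.1 M on RT and 14.9 to 18.6 M on NT. The label podocyte was checked against markers. Synpo (243 to 308 CPM, counts relative to library size after TMM scaling), Podxl (112 to 148 CPM) and Wt1 (93.8 to 117 CPM) were present, while Ptpro held 1 count over all 17 libraries. The tubular genes Cdh16 (922 to 1030 CPM) and Lrp2 (270 to 484 CPM) were abundant, and so was Aqp1 (166 to 339 CPM). Of the other 5 tubular markers, Slc12a1 stood at 2.53 to 4.75 CPM, Umod and Cdh1 held 3 and 4 counts over all libraries, and Slc34a1 and Aqp2 held 0. The 5 endothelial markers summed to at most 1.15 CPM. The RNA is from bulk cultures, so fewer cells with a transcript and less transcript per cell cannot be told apart.

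Of the 10 genes, 1 differed between surfaces. St3gal1 was higher on the fractal than on the round surface, 1.28-fold, with all 6 HF libraries above all 6 RT libraries. St3gal2, which acts on the same core O-glycan, had values on the opposite side, with all 6 HF libraries below all 6 RT libraries, but did not pass the test. The values of the 3 supply genes and the other 5 sialyltransferases overlapped between surfaces in all 3 comparisons. Of 15196 genes tested, 0.211% were called between HF and RT by edgeR's quasi-likelihood test at an adjusted p under 0.05 (0.132% as higher and 0.0790% as lower on HF), and 1 of 10 members was.

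**Figure D1:**
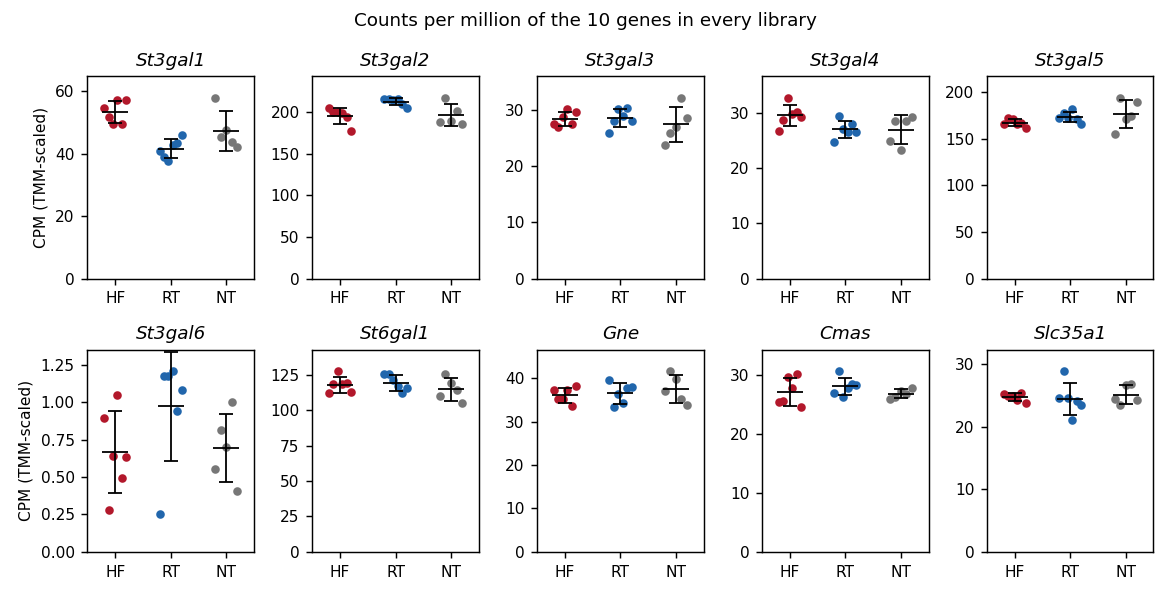
CPM (TMM-scaled, y axis from 0) of the 10 genes in each library on HF, RT and NT, with the mean and SD of each group in black. St3gal1 on HF (49.5 to 57.3 CPM) lies above RT (37.6 to 45.9 CPM), while the groups of the other genes overlap except St3gal2 between HF and RT.

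Levels of different genes were compared per kilobase of annotated exons. St3gal5, the ganglioside GM3 synthase, stood highest at 65.8 ± 3.60 CPM per kilobase (SD, n = 17 libraries). St3gal2 followed at 40.1 ± 2.40 and St6gal1 at 23.9 ± 1.28 CPM per kilobase (SD, n = 17), and the ranges of these 3 genes did not overlap with each other or with those of the genes below. Then came Slc35a1 (10.8 ± 0.728), St3gal3 (10.2 ± 0.733), St3gal4 (9.54 ± 0.788), St3gal1 (6.92 ± 0.954), Cmas (5.80 ± 0.357) and Gne (5.77 ± 0.372 CPM per kilobase, SD, n = 17 each). Among these 6 each overlapped the next in range, so neighbours in this order are not separated by the spread of the libraries. St3gal6 was lowest at 0.127 ± 0.0511 CPM per kilobase (SD, n = 17). Of the summed level per length of the 7 sialyltransferases, St3gal5 made up 42.0%, St3gal2 25.6%, St6gal1 15.3% and St3gal1 4.44% on average. That sum was 155 ± 3.69 CPM per kilobase on HF, 159 ± 3.29 on RT (SD, n = 6 each) and 156 ± 8.83 on NT (SD, n = 5). The libraries ran from 149 to 160 on HF, 154 to 162 on RT and 144 to 168 on NT, so the 3 surfaces overlapped.

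**Figure D2:**
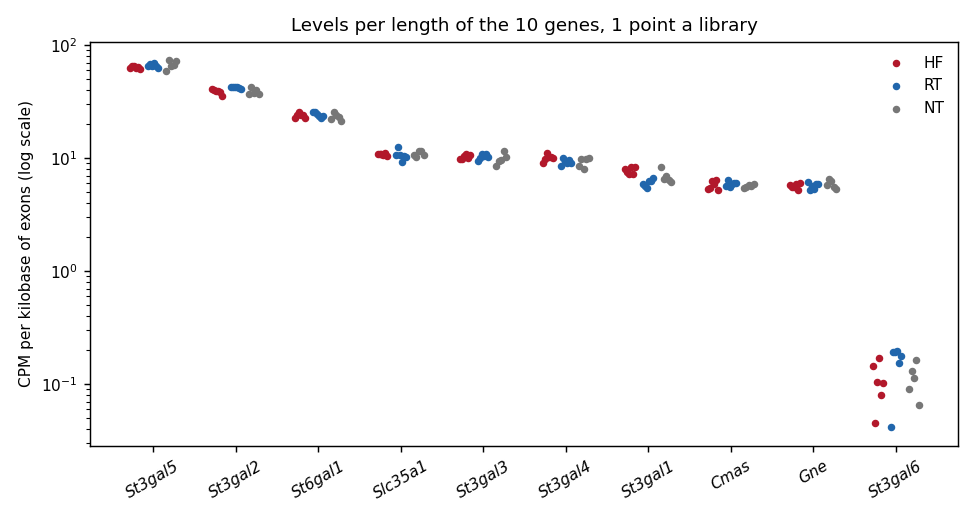
Level per length (CPM per kilobase of annotated exons, log axis) of the 10 genes in order of their mean, 1 point a library, coloured by surface. St3gal5, St3gal2 and St6gal1 stand apart at the top, 6 genes lie between 5.18 and 12.6, and St3gal6 lies at or below 0.195.

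None of the genes that supply the donor sugar passed the test in any comparison. Gne encodes the bifunctional epimerase and kinase that starts sialic acid synthesis and limits its rate. It had 33.6, 36.2 and 38.1 CPM on HF (lowest, median and highest), 33.4, 37.1 and 39.5 CPM on RT, and 37.5 ± 3.21 CPM on NT (SD, n = 5). Its log2 fold change was -0.05 ± 0.06 in HF over NT and -0.02 ± 0.05 in HF over RT (SE, edgeR adjusted p = 0.742 and 0.978). Cmas, which couples sialic acid to CMP, had 24.4, 26.6 and 30.1 CPM on HF, 26.2, 28.0 and 30.5 CPM on RT, and 26.8 ± 0.722 CPM on NT (SD, n = 5). For Cmas the log2 fold change was 0.02 ± 0.06 in HF over NT and -0.05 ± 0.06 in HF over RT (SE, edgeR adjusted p = 0.940 and 0.914). All groups overlapped for both genes. Slc35a1, the Golgi carrier of CMP-sialic acid, had 23.8, 25.0 and 25.5 CPM on HF, 21.1, 24.4 and 28.9 CPM on RT, and 25.1 ± 1.52 CPM on NT (SD, n = 5). Its difference from RT on HF was 0.02 ± 0.06 on the log2 scale (SE, edgeR adjusted p = 0.974). Of the 9 intervals of these 3 genes, the 95% bound farthest from 0 was 0.18 on the log2 scale, for Cmas in RT over NT.

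Of the 2 enzymes of the core O-glycan, St3gal1 (ENSMUSG00000013846) changed. It read 49.5, 53.2 and 57.3 CPM on HF (lowest, median and highest of 6) and 37.6, 41.8 and 45.9 CPM on RT. On NT the 5 libraries read 57.8, 45.2, 47.8, 43.6 and 42.0 CPM. HF and RT did not overlap, and NT overlapped both, since its first library lay above every HF library and the other 4 lay below every HF library. For HF against RT the log2 fold change was 0.36 ± 0.06 (SE, 95% interval 0.22 to 0.49, edgeR adjusted p = 0.0107), and St3gal1 ranked 12 by p among all genes tested. Leaving out any of the 12 libraries gave 0.33 to 0.39, with the highest adjusted p at 0.0436.

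Against the flat surface St3gal1 did not pass in either direction. The log2 fold change was 0.17 ± 0.07 in HF over NT (SE, 95% interval 0.04 to 0.31, edgeR adjusted p = 0.201) and -0.18 ± 0.07 in RT over NT (SE, 95% interval -0.32 to -0.04, edgeR adjusted p = 0.149). Both comparisons use the same NT libraries. The first NT library bears on both values. Without it, St3gal1 was higher on HF than on NT by a log2 fold change of 0.26 (edgeR adjusted p = 0.00661), and RT against NT was -0.10 (edgeR adjusted p = 0.405). With no filter beyond 1 count over all libraries, St3gal1 passed in both, at 0.18 in HF over NT (edgeR adjusted p = 0.0318) and -0.18 in RT over NT (edgeR adjusted p = 0.0220).

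St3gal2 (ENSMUSG00000031749) encodes the other enzyme of the core O-glycan, which also acts on gangliosides. It had 177.6, 199.6 and 204.8 CPM on HF (lowest, median and highest) and 205.0, 214.9 and 216.5 CPM on RT. On NT it had 188.1, 217.1, 189.0, 201.9 and 185.7 CPM. HF lay below RT without overlap, by 204.8 CPM in the highest HF library against 205.0 CPM in the lowest RT library, and NT, from 185.7 to 217.1 CPM, overlapped both. The log2 fold change of HF against RT was -0.12 ± 0.04 (SE, 95% interval -0.19 to -0.04) and did not pass (edgeR adjusted p = 0.233). With only the 2 groups in the fit it did (edgeR adjusted p = 0.0494). HF against NT gave 0.00 ± 0.04 (SE, edgeR adjusted p = 0.991) and RT against NT 0.12 ± 0.04 (SE, edgeR adjusted p = 0.0837). Without the second NT library, the RT over NT value was 0.15 and passed (edgeR adjusted p = 0.0133). Among all genes tested, 0.967% had HF and RT libraries that did not overlap (0.447% with HF higher, 0.520% with HF lower), and of the 10 members St3gal1 and St3gal2 did.

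The ratio of the 2 enzymes was computed after their values were seen and is given as a description. Per length, St3gal1 stood at 0.201 ± 0.0206 of St3gal2 on HF, 0.144 ± 0.0132 on RT (SD, n = 6 each) and 0.178 ± 0.0296 on NT (SD, n = 5). The HF libraries ran from 0.183 to 0.237 and the RT libraries from 0.129 to 0.165, and NT, from 0.153 to 0.226, overlapped both. St3gal1 made up 5.02% ± 0.419 of the summed sialyltransferase level per length on HF, 3.83% ± 0.337 on RT (SD, n = 6 each) and 4.46% ± 0.824 on NT (SD, n = 5). St3gal2 remained the more abundant of the pair in every library.

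**Figure D3:**
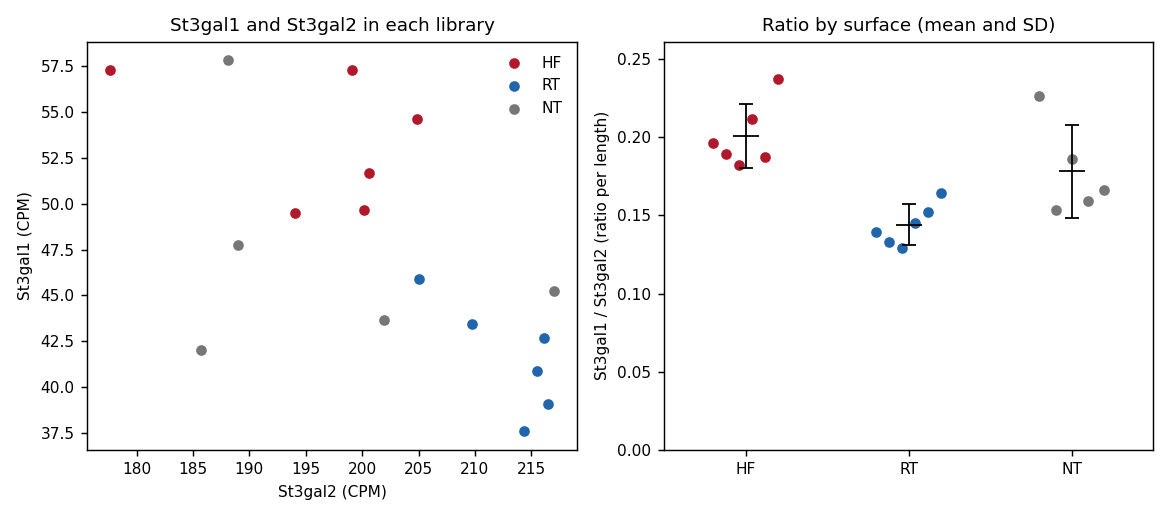
Left, St3gal1 against St3gal2 in each library (CPM, both axes cut to the data), coloured by surface; right, their ratio per length on HF, RT and NT with the mean and SD of each group. HF libraries have ratios of 0.183 to 0.237 and RT libraries 0.129 to 0.165, with NT spread across both.

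The lactosamine enzymes did not pass in any comparison. St3gal3 had 27.1, 28.2 and 30.3 CPM on HF (lowest, median and highest), 26.0, 28.6 and 30.4 CPM on RT and 27.5 ± 3.14 CPM on NT (SD, n = 5). HF differed from RT by a log2 fold change of -0.01 ± 0.06 (SE, edgeR adjusted p = 0.985). St3gal4 had 26.7, 29.5 and 32.6 CPM on HF, 24.8, 26.8 and 29.4 CPM on RT and 26.9 ± 2.63 CPM on NT (SD, n = 5). Its values were highest on HF, with log2 fold changes of 0.14 ± 0.06 in HF over NT and 0.13 ± 0.06 in HF over RT (SE, edgeR adjusted p = 0.315 and 0.589), and all groups overlapped. Of the exonic bases of St3gal4, 14.1% overlap another gene, and since the libraries do not keep the strand, reads there cannot be told apart. St3gal6 was near the limit of detection, with 5 to 18 counts a library on HF, 4 to 26 on RT and 7 to 17 on NT. The HF over RT log2 fold change of -0.56 ± 0.32 (SE, edgeR adjusted p = 0.702) had a 95% interval of -1.21 to 0.09, at 4 to 26 counts a library. In addition, 26% of its exonic bases overlap Dcbld2 and 37.4% of its 100-base windows also occur there. Dcbld2 stood at 121 to 155 CPM, and the few counts of St3gal6 are uncertain.

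The other abundant enzymes, St3gal5 and St6gal1, did not pass either. St3gal5 had 161.7, 166.9 and 172.2 CPM on HF (lowest, median and highest) and 165.7, 172.3 and 181.7 CPM on RT, and it averaged 176.7 ± 15.5 CPM on NT (SD, n = 5). Its log2 fold change was -0.08 ± 0.04 in HF over NT and -0.05 ± 0.04 in HF over RT (SE, edgeR adjusted p = 0.400 and 0.817). St6gal1 had 112.0, 118.4 and 127.4 CPM on HF, 112.0, 119.1 and 126.0 CPM on RT and 114.8 ± 8.03 CPM on NT (SD, n = 5). For St6gal1 the log2 fold change was 0.04 ± 0.04 in HF over NT and -0.02 ± 0.04 in HF over RT (SE, edgeR adjusted p = 0.738 and 0.974). Of its exonic bases 4.07% overlap BC106179, a gene of low level that did not pass in any comparison.

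**Figure D4:**
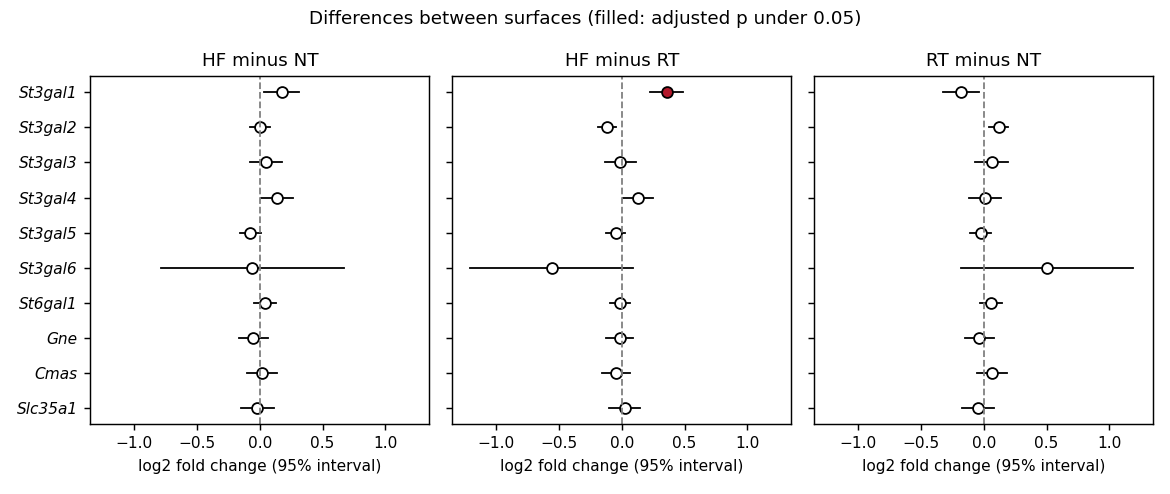
Log2 fold change of each gene in the 3 comparisons (first surface minus second) with its 95% interval, where filled points have an adjusted p under 0.05. St3gal1 in HF minus RT (0.36) is the one filled point, and St3gal6, with 4 to 26 counts a library, has the widest intervals.

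Counted over the set, 0 of 10 members passed in HF over NT, where 2.33% of all genes were called (1.50% higher and 0.829% lower on HF). Likewise 0 of 10 passed in RT over NT, where 3.97% were called (2.53% higher and 1.44% lower on RT). Groups without overlap were found at 2.18% of all genes between HF and NT (1.25% with HF higher, 0.934% lower) and 3.40% between RT and NT (2.18% with RT higher, 1.22% lower), and at 0 of 10 members in both. The counts of passing members are by edgeR, and DESeq2 and limma voom also called 0 in both. At an unadjusted p under 0.05 there were 2 of 10 members in HF over NT, beside 14.2% of all genes, 3 in HF over RT, beside 8.00%, and 2 in RT over NT, beside 17.1%. The median log2 fold change of the members was 0.01 in HF over NT, -0.02 in HF over RT and 0.03 in RT over NT, beside 0.00 over all tested genes in each. Apart from St3gal1 and St3gal6, the 95% intervals of the 8 other members allowed changes of at most 1.20-fold in HF over NT, 1.19-fold in HF over RT and 1.14-fold in RT over NT.

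Among 11150 genes compared with it, Peg10 and Syt12 were those whose log2 CPM followed St3gal1 most closely over the 17 libraries (Pearson r = 0.852 for both). With Spearman's rho, Syt12 came first (0.887) and Actn3 next (0.855), followed by Peg10 (0.836). The libraries share the differences between surfaces, so these are descriptions of likeness and no test.

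The wider pathway was read from 8 further lists with 77 genes, of which 54 could be tested. Of the 54, 4 rose and 1 fell on HF against NT (9.26%, beside 2.33% of all genes), 6 rose and 2 fell on RT against NT (14.8%, beside 3.97%), and 0 passed between HF and RT. Both comparisons with a change use the same NT libraries. Between HF and RT edgeR gave 12 of the 54 an unadjusted p under 0.05, beside 8.00% of all genes, and limma voom called 0 and DESeq2 called Podxl. Of the 77, 9 were not seen, with 0 counts in all 17 libraries, which allows up to 0.125 to 0.201 CPM a library for counting error: the sialyltransferases St6gal2, St6galnac3, St8sia3, St8sia4 and St8sia6, and Neu4, Galnt6, B4galt6 and B3gnt5.

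**Figure D5:**
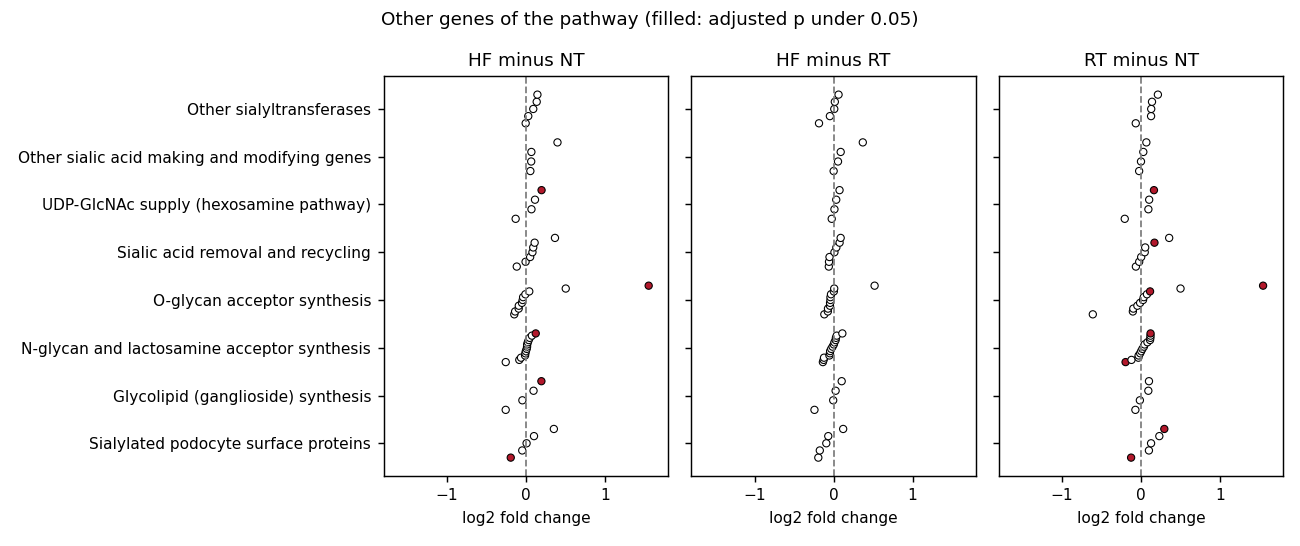
Log2 fold changes (first surface minus second) of the 54 tested genes of 8 pathway lists, where filled points have an adjusted p under 0.05. In HF minus NT 5 points are filled and in RT minus NT 8, with Galnt3 far to the right in both, and none in HF minus RT.

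Sialic acid making, use and removal outside the 10 genes changed at 1 gene. Of 13 other sialyltransferases 5 could be tested, and 0 passed in any comparison by edgeR. At an unadjusted p under 0.05 they were 0 of 5 in HF over NT, 1 in HF over RT and 2 in RT over NT, beside 14.2%, 8.00% and 17.1% of all genes. DESeq2 called St8sia2 in RT against NT, as did edgeR with no filter, when the fit held RT and NT alone, and without NT 2, RT 5, HF 1 or HF 5. With no filter edgeR also called it in HF against RT. St8sia2, a polysialyltransferase, averaged 51.8 ± 4.78 CPM on HF, 59.0 ± 4.13 on RT (SD, n = 6 each) and 51.0 ± 4.96 CPM on NT (SD, n = 5). Its log2 fold change was -0.18 ± 0.06 in HF over RT and 0.21 ± 0.06 in RT over NT (SE, edgeR adjusted p = 0.312 and 0.0621). St6galnac6 stood at 61.5 ± 1.70 CPM on HF, 58.9 ± 1.75 on RT (SD, n = 6 each) and 61.7 ± 0.922 on NT (SD, n = 5), and did not pass. St6galnac4 stood at 29.7 ± 1.07 CPM on HF, 30.6 ± 2.37 on RT (SD, n = 6 each) and 27.9 ± 1.24 on NT (SD, n = 5), and did not pass. Of the 4 tested genes that make or modify sialic acid, 0 passed by edgeR, DESeq2 or limma voom, and 1 had an unadjusted p under 0.05, in HF over RT. Cmah, whose enzyme turns the common mouse sialic acid into its glycolyl form, had 0 to 3 counts a library. Of 7 tested genes of removal and recycling, Neu1, the lysosomal sialidase, rose on RT to 70.9 ± 4.01 CPM (SD, n = 6), against 63.0 ± 3.96 CPM on NT (SD, n = 5, log2 fold change 0.17 ± 0.05, SE, edgeR adjusted p = 0.0384). That call was lost without NT 1, 3, 4 or 5 or RT 1, 2, 3 or 4 (adjusted p up to 0.112).

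Of the genes that build the chains to be capped, 1 of 11 tested for O-glycans, 1 of 14 for N-glycans and 1 of 4 for glycolipids rose in HF over NT, beside 1.50% of all genes. In RT over NT, 2 of 11 for O-glycans rose, 1 of 14 for N-glycans rose and 1 fell, and 0 of 4 for glycolipids passed by edgeR, DESeq2 or limma voom, with 2 at an unadjusted p under 0.05. Beside these, 2.53% of all genes were higher and 1.44% lower on RT, and 17.1% had an unadjusted p under 0.05. Of the genes that passed, Galnt3 had the largest fold change. It starts O-glycans by adding N-acetylgalactosamine to proteins. It had 0.575, 1.88 and 2.86 CPM on HF (lowest, median and highest) and 1.31, 1.69 and 2.42 CPM on RT, against 0.494, 0.880, 0.859, 0.353 and 0.405 CPM on NT. All 6 RT libraries lay above NT, and 5 of 6 HF libraries did. The log2 fold change was 1.55 ± 0.32 in HF over NT and 1.54 ± 0.32 in RT over NT (SE, edgeR adjusted p = 0.00500 and 0.00301), at 6 to 58 counts a library. Fut8, which adds the core fucose of N-glycans, fell on RT to 96.0 ± 3.54 CPM (SD, n = 6), against 110.1 ± 3.43 CPM on NT (SD, n = 5), with all RT libraries below all NT libraries (log2 fold change -0.20 ± 0.04, SE, edgeR adjusted p = 0.00122). B4galnt1, the ganglioside GM2 synthase that extends the product of St3gal5, rose on HF to 89.2 ± 4.81 CPM (SD, n = 6), against 78.0 ± 6.00 CPM on NT (SD, n = 5, log2 fold change 0.19 ± 0.04, SE, edgeR adjusted p = 0.0118). Of the windows of its transcript, 26.9% also occur in Slc26a10. These 3 genes kept their calls in every alternative setting tried.

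The other 3 chain or supply genes passed with calls that depended on single libraries. Uap1l1, a relative of the enzyme that forms UDP-N-acetylglucosamine, rose on HF against NT by a log2 fold change of 0.20 ± 0.05 (SE, edgeR adjusted p = 0.0190) and on RT against NT by 0.16 ± 0.05 (SE, edgeR adjusted p = 0.0439). Mgat4b, a branching enzyme of N-glycans, rose by 0.12 ± 0.03 on both (SE, edgeR adjusted p = 0.0432 for HF and 0.0358 for RT). Galnt2 rose on RT against NT by 0.11 ± 0.03 (SE, edgeR adjusted p = 0.0446), and 93.6% of its windows also occur in other annotated genes. For these 3 genes, each leave-one-out fit described here drops 1 library of the compared groups. Libraries of the third group, which share the fit, are left aside. The highest edgeR adjusted p was 0.0691 for Uap1l1 on HF (lost without NT 2, NT 3 or HF 4). For Uap1l1 on RT it was 0.120 (lost without any but NT 5 or RT 3). It was 0.155 for Mgat4b on HF (lost without any but NT 1, NT 5 or HF 2), 0.135 on RT (lost without any but NT 1, NT 5, RT 2 or RT 3) and 0.123 for Galnt2 (lost without any but NT 2 or RT 5).

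Of 6 genes for proteins that carry sialic acid on podocytes, 5 could be tested. By edgeR 0 rose and 1 fell on HF against NT, beside 2.33% of all genes called. On RT against NT 1 rose and 1 fell, beside 3.97%, and 0 passed between HF and RT. At an unadjusted p under 0.05 they were 2 of 5 in HF over NT, 4 in HF over RT and 4 in RT over NT. Beside these stood 14.2%, 8.00% and 17.1% of all genes. Pdpn, which encodes the mucin-like podoplanin, fell on both reliefs. It averaged 153 ± 4.51 CPM over the 6 HF libraries and 161 ± 7.02 CPM over the 6 RT libraries (SD), against 175 ± 5.97 CPM on NT (SD, n = 5). The log2 fold change was -0.19 ± 0.03 for HF and -0.13 ± 0.03 for RT (SE, edgeR adjusted p = 0.000972 and 0.0309), and the second was lost without NT 2, 3 or 4 or RT 1, 2 or 6 (adjusted p up to 0.0976). Podxl2 (endoglycan, a relative of podocalyxin) rose on RT to 26.0 ± 3.65 CPM (SD, n = 6), against 21.3 ± 2.19 CPM on NT (SD, n = 5, log2 fold change 0.29 ± 0.08, SE, edgeR adjusted p = 0.0321), a call lost without NT 1 or 3 or RT 3, 4 or 5 (adjusted p up to 0.0961). Podxl itself did not pass by edgeR, with a log2 fold change of -0.17 ± 0.04 in HF over RT and 0.13 ± 0.04 in RT over NT (SE, adjusted p = 0.0807 and 0.119). It was called by edgeR in both with no filter, in HF against RT also when the fit held those groups alone or without HF 3, and in RT against NT also without NT 2. Between HF and RT, it and St3gal1 had values of opposite sign.

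Some markers of other cell types passed between the surfaces as well. Of all genes tested, edgeR called 2.33% in HF against NT, 0.211% in HF against RT and 3.97% in RT against NT. The 5 parietal epithelial markers summed to 731 to 787 CPM on HF, 778 to 814 CPM on RT and 827 to 874 CPM on NT, with Krt18 at 0 counts. Of the 3 tested, Ncam1, whose protein can carry polysialic acid, fell on HF against RT (log2 fold change -0.15 ± 0.03, SE, edgeR adjusted p = 0.0109) and against NT, and Cldn1 fell on RT against NT. The 6 mesangial and smooth muscle markers summed to 809 to 883 CPM on HF, 780 to 858 CPM on RT and 680 to 775 CPM on NT, with Ren1 at 0 counts. Acta2 rose on HF and on RT against NT, and Tagln rose on RT against NT. Between HF and RT 0 of the 4 tested passed by edgeR. There 2 had an unadjusted p under 0.05, beside 8.00% of all genes. The 9 podocyte markers summed to 1323 to 1384 CPM on HF, 1342 to 1394 CPM on RT and 1303 to 1362 CPM on NT. Of the 7 tested, Wt1 fell on HF and on RT against NT and Actn4 rose on HF against NT. The 8 tubular markers summed to 1461 to 1811 CPM on HF, 1520 to 1709 CPM on RT and 1422 to 1777 CPM on NT, with Slc34a1 and Aqp2 at 0 counts. Between HF and RT, where St3gal1 differed, each of these sums overlapped, and their part in the results was not tested.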

How the data were processed

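RNA of 17 libraries was measured by poly-A selected, non-directional paired-end sequencing, per the labels' protocols. The authors deposited raw counts per gene, with no normalization. Per the submitters' processing notes, CASAVA, HISAT2 2.0.5, featureCounts 1.5.0-p3 and the build GRCm39 were used. The annotation release, strand setting and filters are not given in the sources used here. Symbols (52073 of 56748 identifiers), exon lengths and overlaps came from GENCODE M21, on the earlier build GRCm38, so no position is given. For St6galnac2, which has several identifiers, the one with most counts was used.

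Genes passing filterByExpr (15196, all 10 members among them) received TMM factors and entered edgeR 4.0.16 (robust quasi-likelihood F test, 1 mean for each of 3 groups, no covariate). The two-sided p-values of all 15196 genes received Benjamini-Hochberg adjustment, and those under 0.05 passed. A standard error was obtained as the log2 fold change over the root of its F statistic, and 95% intervals are not adjusted for multiple tests. Limits for counts of 0 use 3 counts and cover counting error only. DESeq2 1.42.0, limma 3.58.1 and the other alternatives stand in the closing section. The scripts were tested on simulated data.

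All members are described. Of the other lists, genes past the threshold are named, and otherwise up to 3 with the highest mean CPM. Members, lists and rules were chosen with earlier results of these data known, so their counts are no independent support. Some genes that these rules would name are not reported here.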

Additional observations from a re-analysis of the deposited data

Results flagged for a closer look

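Of 30 sets of libraries tested (10 genes in 3 groups), 1 held a library far from the others by Dixon's criterion, where chance gives about 1 in 20. In RT, St3gal6 stood at 0.256 CPM in the first library (4 counts), against 0.941 to 1.21 CPM in the other 5. Without that library the log2 fold change of St3gal6 was -0.74 in HF over RT and 0.68 in RT over NT, and neither passed.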

How the results depend on the processing

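The rise of St3gal1 on HF against RT passed in all 21 alternative settings, leave-one-out included (log2 fold change 0.33 to 0.39, adjusted p 1.18e-09 to 0.0436). The count of 1 member past the threshold in HF against RT was 1 in each leave-one-out fit but 2 when the fit held those 2 groups alone (St3gal2 added). For HF against NT, 0 members became 1 (St3gal1) with no filter beyond 1 count, and leave-one-out gave 0 to 1 (St3gal1 without NT 1). For RT against NT, 0 became 1 (St3gal1) with no filter, and leave-one-out gave 0 to 1 (St3gal2 without NT 2). No value that passed changed its sign. Values near 0 that did not pass did. For St3gal2 in HF over NT (main value 0.00), the value was above 0 with DESeq2 (0.000286), limma voom (7.76e-05), DESeq2's size factors (0.000182), the block (0.0177), numbers 1 to 5 (0.0249) and both together (0.0260), and leave-one-out gave -0.0218 to 0.0358. Leave-one-out ranges also crossed 0 in HF over NT for St3gal6 (-0.24 to 0.11), Cmas (-0.0139 to 0.0455) and Slc35a1 (-0.0459 to 0.00263), in HF over RT for St3gal3 (-0.0365 to 0.00695), Gne (-0.0405 to 0.00495) and Slc35a1 (-0.0144 to 0.0746), and in RT over NT for St3gal4 (-0.0405 to 0.0398) and St3gal5 (-0.0707 to 0.00518). No scaling moved the median of all genes by 0.1 on the log2 scale.

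The replicate number as a block gave 2 members in RT against NT, St3gal1 (-0.20, adjusted p = 0.0261) and St3gal2 (0.14, adjusted p = 0.00775), and also 2 with libraries numbered 1 to 5 only, a setting added after seeing the data. It changed no call of a member in the other comparisons. Same-numbered libraries correlated over 0.1 in 3 of 16 pairs (r from -0.02 to 0.21), not in every pair, and the labels give the numbers no meaning, so they were not taken as pairs. A hint of shared structure is that 10 of 16 matched their own number best.

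Other pathway genes past the threshold in HF against NT numbered 5, and 3 when the fit held those 2 groups alone (3 to 6 in leave-one-out). In HF against RT they numbered 0, and 1 with DESeq2, 2 with no filter, 2 with the block (Podxl and St8sia2, which the block also gave in RT against NT) and 1 with only the 2 groups (0 to 1 in leave-one-out). In RT against NT they numbered 8, and 11 with no filter, 11 with the block, 9 with DESeq2, but 4 both with libraries numbered 1 to 5 alone and when the fit held those 2 groups (2 to 8 in leave-one-out).

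Over all genes, the 354 calls of HF against NT became 554 with DESeq2, 597 with no filter, 637 with the block, 594 with the block and numbers 1 to 5, and 200 with only the 2 groups (202 without NT 3 to 604 without NT 5). The 32 of HF against RT became 89 with DESeq2, 148 with no filter, 125 with the block, 15 with numbers 1 to 5 and 113 with only the 2 groups (14 without RT 1 to 89 without HF 3). The 603 of RT against NT became 995 with the block (365 without NT 3 to 806 without NT 5). The cause was not tested.

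With the longest transcript as length, levels per kilobase were higher for all 10 genes. St3gal5, St3gal2, St6gal1, Gne and St3gal6 kept their ranks, and St3gal4 stood at rank 4. Peg10 and Syt12 were among the 3 genes most like St3gal1 by both correlation measures. At 4 to 26 counts, depth limits St3gal6 most.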

Other observations

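Nanp and Gnpnat1, genes of the pathway that cells need for making sialic acid, were listed very low. Nanp, which removes the phosphate in the last step before free sialic acid, had 0 to 25 counts a library, and 53.7% of the windows of its transcript also occur in Gm6741 or Ninl. Gnpnat1, an acetyltransferase of UDP-N-acetylglucosamine synthesis, had 1 to 13 counts a library with 83.7% of its windows shared. Nans, the sialic acid phosphate synthase, was not low, with 300 to 556 counts a library. It was tested and did not pass, and 50.2% of its windows also occur in Trim14. How the authors' counting treated such shared sequence is not given in the sources used here.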
